A study of Homo sapiens with 6 samples.

Results

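The 37 genes described here encode the enzymes and transporters that take up glucose, break it down to pyruvate and lactate, pass pyruvate into mitochondria, and run the pentose phosphate pathway. They were chosen by name, with earlier results of these data known. Every probe set whose only gene symbol was one of the names was taken. Probe sets were found for 35 of the 37 genes, among 19775 genes named on the array by such probe sets. The lactate transporters SLC16A1 and SLC16A3 had no such probe set and were not analysed here. The 35 genes had 85 probe sets, of which 3 were GAPDH control probe sets and 12 lay below the filter on dim signal. The remaining 70 represented 34 genes. The neuronal glucose transporter gene SLC2A3 was not tested, since its 3 probe sets stayed between 2.18 and 2.21 on every array, at the floor of the scale.

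The samples were cultures of IMR32, an established human neuroblastoma cell line with an amplified MYCN gene. Of the 6 arrays, 3 came from cells kept with 0.1% DMSO, the solvent control, and 3 from cells kept with 118 µM teriflunomide. Exposure lasted 24 h and began 12 h after seeding in both groups. Teriflunomide blocks dihydroorotate dehydrogenase, the mitochondrial step of pyrimidine synthesis, and the labels do not say whether its wells held DMSO too. Replicates are called biological, without stating that they came from separate cultures, so p-values measure the spread between these arrays and that spread may be technical. Values are log2 intensities, so a difference of 1 is a doubling, and the level of 1 gene cannot be set against that of another.

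Glycolysis splits glucose into pyruvate in the cytosol and yields ATP and NADH. Pyruvate is then reduced to lactate by lactate dehydrogenase, or carried into mitochondria by the mitochondrial pyruvate carrier and oxidised by pyruvate dehydrogenase. The pentose phosphate pathway branches off at glucose 6-phosphate and supplies NADPH and ribose 5-phosphate, the sugar of all nucleotides. Many steps of glycolysis have isoenzymes from separate genes, and tumour cells are known for high expression of the hypoxia and MYC controlled forms.

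With teriflunomide, 13 of the 34 tested genes rose, 11 fell and 10 did not pass the test (limma, Benjamini-Hochberg adjusted p under 0.05 over 11998 genes). Over all 11998 genes, 29.7% were higher and 28.9% lower, so 58.6% passed in either direction. Among the genes described here the shares were 38.2% higher, 32.4% lower and 70.6% in all. These genes are bright, and of the 4597 tested genes with a mean of log2 10 or more 66.7% passed, against 17 of the 25 members that bright. On the brightest probe set, which stands for each gene, the changes were small. The absolute log2 fold change had a median of 0.26 against 0.29 over all genes. On that probe set 1 of the 34 genes, ENO2, changed at least 2-fold, where 9.77% of all genes passed at that size. Dimmer probe sets of HK2 (-1.16 and -1.12) and MPC2 (1.04) also changed at least 2-fold. The median log2 fold change was 0.0043 here and 0.0014 over all genes, both near 0. For 27 of the 34 genes no teriflunomide array lay within the range of the controls, 14 above and 13 below. Over all genes tested such a gap was seen in 67.0%, with 33.9% above and 33.1% below. Of the 24 genes called, 15 were called under all 16 alternative settings, 9 of them lower and 6 higher. The 9 include PDK2, whose other probe set rose by 0.35. Without DMSO replicate 3 the number of higher genes was 8.

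**Figure D1:**
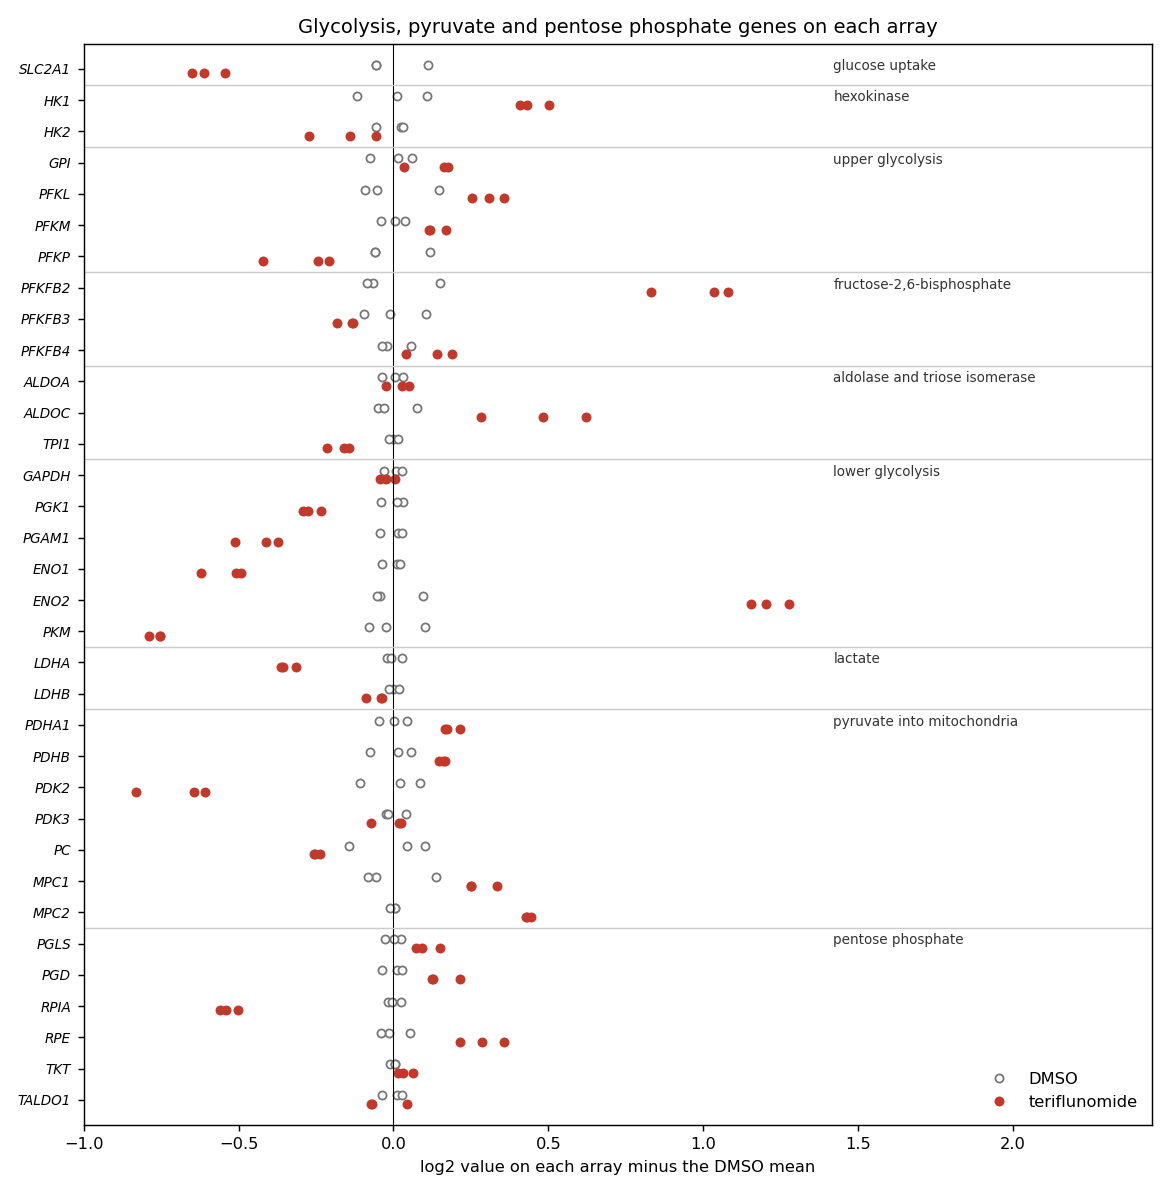
Each point is the log2 value of a gene on an array minus the mean of the 3 DMSO arrays, with open points for DMSO and filled points for teriflunomide. ENO2 and PFKFB2 lie farthest to the right, and SLC2A1, PKM, PDK2, ENO1 and RPIA farthest to the left.

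Measures of RNA and cell identity were taken from the same arrays. Intensity of the GAPDH control probe set at the 3' end minus that at the 5' end averaged 0.049 (SD 0.006, n = 3) for the controls and 0.063 (SD 0.021, n = 3) for the treated arrays, on the log2 scale (exact permutation test, p = 0.4). The same measure for ACTB was 1.36 (SD 0.032) and 1.62 (SD 0.070), without overlap (exact permutation test, p = 0.1, the lowest possible with 3 arrays a side). The part of this difference in the changes below was not tested. Of 12 sympathetic neuroblastoma markers with a probe set, 10 passed the filter, of which 3 rose (PHOX2A, GATA3 and ISL1), 3 fell and 4 did not pass. Those that fell were CHGA, the secretory granule protein chromogranin A (12.73 to 11.27, log2 fold change -1.46), DDC, of catecholamine synthesis (8.38 to 6.55, -1.82), and MYCN (-0.43). TH and STMN2 stayed near the floor. The log2 of the summed intensity of the 12 was 16.05 to 16.10 in DMSO and 15.82 to 15.90 with teriflunomide. MYCN, the brightest of the 12, weighs most in this sum, with means of 15.11 in DMSO and 14.69 with teriflunomide. Of 15 markers of blood, endothelial, epithelial, stromal and liver cells, 10 were below the filter at 2.18 to 2.58. Of the other 5, the collagen gene COL1A1 rose by 0.94, from 10.81 to 11.75, while KRT8, KRT18, EPCAM and PDGFRB, at means of 2.73 to 5.65, did not pass. The log2 of the summed intensity of the 15 was 10.88 to 11.00 in DMSO and 11.76 to 11.87 with teriflunomide, and lay close to the level of COL1A1 alone. The part of either marker list in the changes below was not tested.

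The first steps of glycolysis moved in different directions. SLC2A1, the ubiquitous glucose transporter GLUT1, read 8.37, 8.20 and 8.20 on the DMSO arrays and 7.61, 7.71 and 7.65 on the teriflunomide arrays. All 3 treated arrays lay below all 3 controls, and the log2 fold change was -0.60 (SE 0.061, adjusted p = 0.000593). The other SLC2A1 probe set stayed at 2.18 on every array and was not tested. HK1, the housekeeping hexokinase that traps glucose as glucose 6-phosphate, read 10.23, 10.36 and 10.46 in DMSO and 10.85, 10.78 and 10.76 with teriflunomide. It rose by 0.45 (SE 0.067, adjusted p = 0.00253), with no overlap between the groups. HK2, the inducible hexokinase of many tumours, depended on the probe set. The brightest, which stands for the gene, read 11.34, 11.42 and 11.43 in DMSO and 11.13, 11.26 and 11.34 with teriflunomide. It did not pass at -0.16 (SE 0.064, adjusted p = 0.0864), and passed at -0.21 without teriflunomide replicate 3. The other 2 HK2 probe sets fell by more than 2-fold, from a mean of 8.79 to 7.62 and from 8.04 to 6.92. Their log2 fold changes were -1.16 and -1.12 (limma adjusted p = 0.000191 and 0.00118 over 22735 probe sets, of which 25.5% were higher and 26.8% lower). The mean of the 3 HK2 probe sets gave -0.81 (adjusted p = 0.000521).

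Among the next steps, the isomerase gene GPI stood at 0.12 and did not pass. Phosphofructokinase, which commits sugar to glycolysis, has 3 subunit genes. PFKL, the liver type, rose by 0.31, a call lost without DMSO replicate 2 (0.28, adjusted p = 0.051) or teriflunomide replicate 1 (0.28, adjusted p = 0.054), and with the replicate number as a block. PFKM, the muscle type, rose by 0.13. Its call was lost without DMSO replicate 1 (0.14), DMSO replicate 3 (0.11) or teriflunomide replicate 1 (0.12), with array centring, and with the block. PFKP, the platelet type, read 11.03, 11.03 and 11.21 in DMSO and 10.88, 10.85 and 10.67 with teriflunomide. The change was -0.29 (SE 0.080, adjusted p = 0.0248), lost without DMSO replicate 3 (-0.23), teriflunomide replicate 2 (-0.32) or teriflunomide replicate 3 (-0.23), with no filter, and with the block.

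The PFKFB genes encode bifunctional enzymes that make and remove fructose 2,6-bisphosphate, the strongest activator of phosphofructokinase. PFKFB2, the heart type, read 7.35, 7.13 and 7.11 in DMSO and 8.23, 8.03 and 8.28 with teriflunomide, a 1.98-fold increase (log2 0.98, SE 0.096, adjusted p = 0.000529). Its 3 other probe sets stayed between 2.18 and 2.28 on every array and were not tested. PFKFB3, the form with the highest kinase activity relative to its phosphatase activity, stood at -0.15 and PFKFB4 at 0.12, and neither passed. PFKFB3 passed without DMSO replicate 3 (-0.20) and PFKFB4 without teriflunomide replicate 1 (0.16).

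The aldolase genes differed. ALDOA, the main form in most tissues, read 13.87 to 13.94 in DMSO and 13.88 to 13.96 with teriflunomide, and did not pass at 0.02 (SE 0.036). Of the other 2 ALDOA probe sets, 1 fell by 0.14 (adjusted p = 0.0451 over probe sets). ALDOC, the brain form, read 8.16, 8.19 and 8.29 in DMSO and 8.70, 8.84 and 8.50 with teriflunomide. It rose by 0.46 (SE 0.094, adjusted p = 0.00853), and all treated arrays were above all controls. TPI1, which interconverts the triose phosphates, fell by 0.17 on its brightest probe set (SE 0.032, adjusted p = 0.00603). All 3 TPI1 probe sets fell, by 0.17, 0.17 and 0.42.

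In the later steps of glycolysis, where ATP is made, 4 of 6 genes fell, 1 rose and GAPDH did not pass, beside 28.9% of all genes lower and 29.7% higher. GAPDH read 15.26, 15.30 and 15.32 in DMSO and 15.25, 15.29 and 15.27 with teriflunomide, a difference of -0.02 (SE 0.031, adjusted p = 0.594). Its 3 control probe sets differed by 0.002, -0.005 and -0.012. GAPDH oxidises glyceraldehyde 3-phosphate and is a common reference gene, and its arrays overlapped on every probe set.

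PGK1, the first ATP-forming enzyme, read 14.14, 14.22 and 14.20 in DMSO and 13.91, 13.95 and 13.89 with teriflunomide. The log2 fold change was -0.27 (SE 0.034, adjusted p = 0.00146), and 4 of 6 PGK1 probe sets fell, by 0.27 to 0.60. The others, with DMSO means of 5.48 and 2.82, did not pass at -0.09 and -0.32. PGAM1, phosphoglycerate mutase, read 13.97, 14.03 and 14.04 in DMSO and 13.50, 13.64 and 13.60 with teriflunomide, a change of -0.43 (SE 0.047, adjusted p = 0.000777). PKM, pyruvate kinase of most cells and tumours, read 9.48, 9.30 and 9.35 in DMSO and 8.62, 8.59 and 8.62 with teriflunomide. It changed by -0.76 (SE 0.053, adjusted p = 0.000176), the largest fall among the brightest probe sets of the 34 genes, with a dimmer probe set at -0.53 that did not pass. Averaged over its probe sets PKM was at -0.65, behind HK2 at -0.81, and without DMSO replicate 1 it was at -0.71, behind PDK2 at -0.75. These probe sets were not tied to the PKM1 or PKM2 splice form.

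The enolase genes, which make phosphoenolpyruvate, moved in opposite directions. ENO1, the ubiquitous form, read 13.79, 13.74 and 13.80 in DMSO and 13.27, 13.29 and 13.16 with teriflunomide. The log2 fold change was -0.54 (SE 0.045, adjusted p = 0.000326), and the 3 tested ENO1 probe sets fell by 0.54, 0.51 and 0.71. ENO2, the neuronal form known as neuron-specific enolase and a marker of neuroblastoma, read 10.33, 10.47 and 10.32 in DMSO and 11.58, 11.65 and 11.53 with teriflunomide. It rose 2.31-fold (log2 1.21, SE 0.057, adjusted p = 6e-05) and had 1 probe set. ENO3, the muscle form and not in the list, rose by 1.24, from a mean of 9.24 (SD 0.17, n = 3) to 10.49 (SD 0.058, n = 3).

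LDHA, the subunit favoured in lactate-producing cells, read 15.38, 15.40 and 15.44 in DMSO and 15.05, 15.09 and 15.04 with teriflunomide. The change was -0.34 (SE 0.031, adjusted p = 0.00043), with no overlap. LDHB, the subunit favoured in oxidative tissues, read 15.25, 15.24 and 15.27 in DMSO and 15.21, 15.22 and 15.16 with teriflunomide. It did not pass at -0.06 (SE 0.030, adjusted p = 0.163), although every treated array lay below every control.

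Promoter windows of ENO1, ENO2, PGK1 and LDHA are given because the enolase genes moved in opposite directions and the other pair fell with ENO1. Each runs from 250 bases before to 50 bases after a RefSeq transcript start (build GRCh38.p14) and is written along the gene's strand. ENO1 is at chr1:8878637-8878936 on the minus strand, ENO2 at chr12:6914330-6914629, PGK1 at chrX:78103998-78104297, and the LDHA windows at chr11:18394313-18394612 and chr11:18396101-18396400, all 4 on the plus strand. Capitals mark ACGTG or its reverse complement. ACGTG is a form of the core of the hypoxia response element, and the E-box CACGTG contains it. Other forms of that core were not searched for or marked, so a window without capitals may still hold them.
ENO1: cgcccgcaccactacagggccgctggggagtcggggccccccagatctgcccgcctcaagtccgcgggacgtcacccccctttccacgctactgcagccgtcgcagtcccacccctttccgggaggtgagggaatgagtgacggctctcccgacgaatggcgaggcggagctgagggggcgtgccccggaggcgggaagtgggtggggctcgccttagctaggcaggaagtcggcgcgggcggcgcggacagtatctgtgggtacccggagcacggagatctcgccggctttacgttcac
ENO2: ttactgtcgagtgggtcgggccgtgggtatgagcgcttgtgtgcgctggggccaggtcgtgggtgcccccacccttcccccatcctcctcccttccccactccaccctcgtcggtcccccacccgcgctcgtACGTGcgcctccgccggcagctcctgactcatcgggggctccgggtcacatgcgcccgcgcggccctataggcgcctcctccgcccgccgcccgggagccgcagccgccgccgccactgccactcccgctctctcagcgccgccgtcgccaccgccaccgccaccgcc
PGK1: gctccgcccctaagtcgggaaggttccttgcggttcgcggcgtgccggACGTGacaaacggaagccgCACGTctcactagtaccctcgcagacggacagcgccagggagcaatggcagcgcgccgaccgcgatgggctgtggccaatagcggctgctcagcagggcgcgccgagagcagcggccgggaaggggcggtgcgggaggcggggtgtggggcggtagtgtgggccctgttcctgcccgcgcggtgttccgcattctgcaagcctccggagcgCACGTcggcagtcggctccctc
LDHA, upstream window: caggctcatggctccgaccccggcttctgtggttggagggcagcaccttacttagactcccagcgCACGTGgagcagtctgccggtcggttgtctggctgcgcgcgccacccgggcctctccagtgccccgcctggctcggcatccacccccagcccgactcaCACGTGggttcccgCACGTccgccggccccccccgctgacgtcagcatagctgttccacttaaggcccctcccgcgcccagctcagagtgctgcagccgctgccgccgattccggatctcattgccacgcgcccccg
LDHA, downstream window: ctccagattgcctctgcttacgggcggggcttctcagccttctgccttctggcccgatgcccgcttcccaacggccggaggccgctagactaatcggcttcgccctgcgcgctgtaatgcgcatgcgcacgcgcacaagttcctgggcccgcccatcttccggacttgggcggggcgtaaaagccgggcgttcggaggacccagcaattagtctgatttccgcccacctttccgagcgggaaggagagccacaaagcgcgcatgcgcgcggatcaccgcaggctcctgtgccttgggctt
Of these, ENO1 and the downstream LDHA window held no ACGTG on either strand, while ENO2 held 1, PGK1 3 and the upstream LDHA window 5, counting each strand of its 2 palindromic CACGTG. RefSeq gave 65 windows, some of which overlap, for 33 of the 34 tested genes (not PFKFB2) and for SLC16A3. ACGTG was in 22 of the 65 (33.8%), against 25.5% of the 14435 windows of genes tested and 21.4% of all 35116 windows. Among the 65, it was in 6 of 26 windows of genes that rose and 6 of 20 of genes that fell. It was in 9 of 14 of genes that did not pass, and in 1 of the 5 of SLC16A3, which had no expression value here. These are counts of windows, not of genes. A gene with several starts counts several times, HK1 and PFKM most, so the shares do not compare genes. CACGTG was in 8 of 65 windows (12.3%, against 9.57% for genes tested). TGATGNAA, the core of the amino acid response element, was in 2 of 65 (3.08%, against 1.92%), and both are overlapping windows of HK1. A match describes letters in a window and is not evidence of binding.

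Of 7 genes that bring pyruvate into mitochondria or govern its use there, 4 rose and 2 fell, beside 29.7% and 28.9% of all genes. Of these 6 calls, those of PDHA1 and PDK2 were opposed by another probe set of the same gene. MPC2, a subunit of the mitochondrial pyruvate carrier, read 11.52, 11.52 and 11.50 in DMSO and 11.95, 11.94 and 11.96 with teriflunomide. It rose by 0.43 (SE 0.026, adjusted p = 0.000114), and its other probe set rose by 1.04 (SE 0.092). MPC1, the partner subunit, rose by 0.28 (SE 0.069, adjusted p = 0.017). That call was lost without DMSO replicate 1 (0.25), DMSO replicate 3 (0.24) or teriflunomide replicate 2 (0.25). MPC1 read 10.38, 10.57 and 10.35 in DMSO and 10.68, 10.77 and 10.69 with teriflunomide, which did not overlap. The other MPC1 probe set stayed at 2.18 on every array and was not tested.

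Pyruvate dehydrogenase makes acetyl-CoA. PDHA1, its E1 alpha subunit, rose by 0.18 on its brightest probe set, rose by 0.22 on the next, and fell by 0.39 on a dimmer one (9.46 to 9.07), so its direction is not settled. PDHB, the E1 beta subunit, rose by 0.16 on 1 probe set and did not pass at 0.0075 on the other. The PDHB call was lost without DMSO replicate 3 (0.17) or any teriflunomide replicate (0.15 to 0.16), and with the mean of the probe sets.

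The PDK genes encode kinases that switch pyruvate dehydrogenase off. PDK2 read 8.21, 8.34 and 8.40 in DMSO and 7.49, 7.67 and 7.71 with teriflunomide, a change of -0.69 (SE 0.081, adjusted p = 0.001). Its other probe set read 6.33, 6.43 and 6.28, then 6.73, 6.72 and 6.65, and rose by 0.35 (SE 0.052, adjusted p = 0.00293 over probe sets), so the PDK2 direction is not settled either. PDK3 did not pass on its bright probe set at -0.01 (SE 0.041). A dim PDK3 probe set rose by 0.91, from 3.80 to 4.71, near the floor, and 3 others did not pass. PDK1, the hypoxia-induced kinase, which is not in the list, fell by 1.32 (SE 0.080).

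PC, which carboxylates pyruvate to oxaloacetate, read 7.06, 6.87 and 7.12 in DMSO and 6.78, 6.76 and 6.77 with teriflunomide. The change was -0.25 (SE 0.069, adjusted p = 0.0256). The PC call was lost with no filter and without any array other than DMSO replicate 2 (-0.20 to -0.25).

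In the pentose phosphate pathway, 3 of 6 genes rose and 1 fell, and a total of 4 of 6 is near the 58.6% called over all genes. PGLS and PGD, of the oxidative branch that makes NADPH, rose by 0.10 and 0.16. The PGLS call (adjusted p = 0.0476) was lost in 14 of 16 alternative settings, among them leaving out any array, where it ranged from 0.08 to 0.12. The PGD call (adjusted p = 0.0191) was lost without DMSO replicate 3, at 0.14. The other PGD probe sets stayed at 2.18 on every array and were not tested. RPIA, the isomerase that forms ribose 5-phosphate, read 11.38, 11.42 and 11.39 in DMSO and 10.83, 10.89 and 10.86 with teriflunomide. Its fall of 0.54 (log2 fold change -0.54, SE 0.031, adjusted p = 0.000104) left a gap between the groups many times wider than the spread within either. RPE, the epimerase that competes with RPIA for ribulose 5-phosphate, read 11.69, 11.76 and 11.67 in DMSO and 11.92, 11.99 and 12.06 with teriflunomide. It rose by 0.29 (SE 0.050, adjusted p = 0.00457), and another RPE probe set rose by 0.24, while a further one did not pass at -0.09. The transfer enzymes TKT, at 0.04, and TALDO1, at -0.03, did not pass on their brightest probe sets. A dim TKT probe set rose by 0.63, from 3.28 to 3.91.

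**Figure D2:**
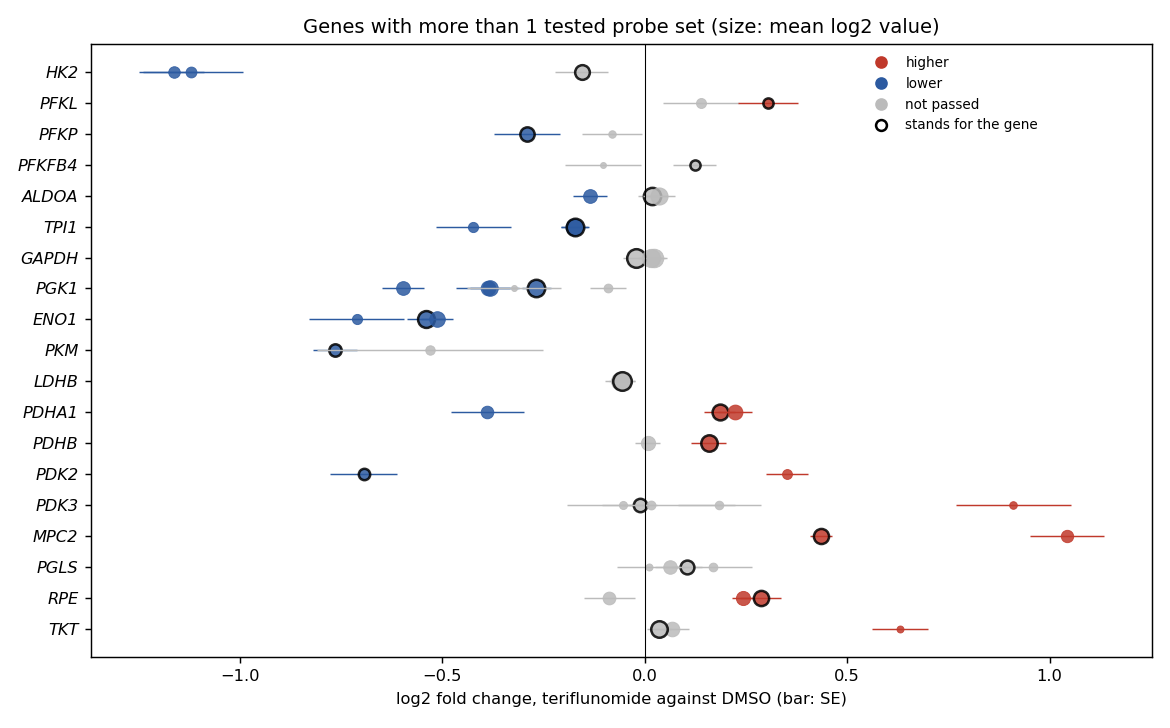
Each point is the log2 fold change of a tested probe set, with its SE, for the 19 genes that have more than 1, and point size grows with the mean log2 value. Black rings mark the probe set that stands for the gene, and PDHA1 and PDK2 have points called in opposite directions.

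Of the 70 probe sets tested singly, 18 rose, 22 fell and 30 missed the threshold, where 52.3% of all probe sets were called in either direction. Some of the 30 lay near the floor, such as a PFKFB4 probe set with a DMSO mean of 2.64. The 19 genes with more than 1 tested probe set include ENO1, TPI1 and MPC2, in which all were called the same way. They also include PDHA1 and PDK2, in which calls opposed each other.

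Shifts between enzymes of the same reaction or branch were read as the difference of their log2 values within each array, for 6 pairs chosen after their values were seen. Each pair was ordered so that its difference rose, so the direction is part of the choice and no test is given. ENO2 moved by 1.75 relative to ENO1, with SDs of 0.11 in DMSO and 0.035 with teriflunomide. RPE moved by 0.82 relative to RPIA and HK1 by 0.60 relative to the HK2 probe set used. ALDOC gained 0.44 on ALDOA, PFKM 0.43 on PFKP and LDHB 0.29 on LDHA. The smallest shift, of LDHB against LDHA, had SDs of 0.018 in DMSO and 0.023 with teriflunomide.

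**Figure D3:**
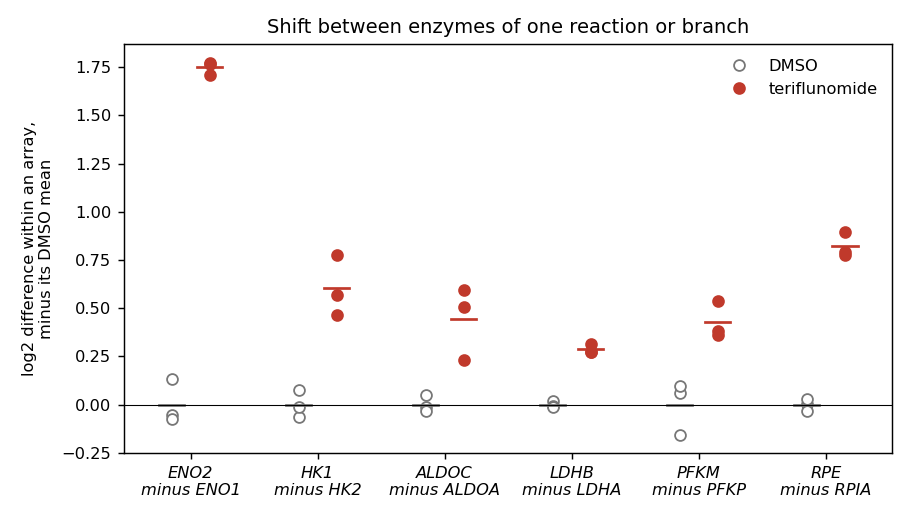
For each pair the difference of the log2 values within an array is plotted minus its DMSO mean, open for DMSO and filled for teriflunomide, with a line at each group mean. The pairs were ordered to give a rise, and the shift runs from 0.29 for LDHB against LDHA to 1.75 for ENO2 against ENO1.

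Other genes of the same metabolism came from lists set by name, chosen with earlier results of these data known. They are set beside the 29.7% higher and 28.9% lower over all genes, or 58.6% in either direction, as a description. Of 28 tested genes for further isoenzymes, transporters and regulators of these steps, 9 rose and 6 fell, while 13 missed the threshold. Their median log2 fold change was 0.09, and their share called was not above that of all genes. PCK2, mitochondrial phosphoenolpyruvate carboxykinase, rose most, from 8.88, 9.01 and 8.84 to 12.60, 12.61 and 12.58, or 12.9-fold (log2 3.68, SE 0.050). EMB, a chaperone of monocarboxylate transporters, rose by 0.48. After PDK1, the largest falls were SHPK, sedoheptulokinase, at -0.72, and PGAM5, a mitochondrial phosphatase, at -0.65.

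Another list held genes of the tricarboxylic acid cycle, the malate-aspartate shuttle, and linked genes of neither, such as IDH1, ME1, ACO1 and ACLY. Of its 27 tested genes, 8 rose and 5 fell, while 14 missed the threshold (median 0.02), fewer called than the 58.6% of all genes. GOT1, cytosolic aspartate aminotransferase, rose by 1.51, and the cytosolic NADPH-producing enzymes IDH1 and ME1 rose by 1.26 and 1.13. SLC25A12, a mitochondrial aspartate-glutamate carrier, changed by -1.85, IDH3B by -0.43 and ACO1 by -0.28.

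Of 22 tested regulators of glycolytic genes, 8 rose and 5 fell, while 9 missed the threshold (median 0.13), a share called near the 58.6% of all genes. TXNIP, which restrains glucose uptake, rose from 10.86, 10.76 and 10.79 to 12.66, 12.72 and 12.68 (log2 1.89, SE 0.039). EPAS1, which encodes HIF-2 alpha, rose by 1.38 and the coactivator gene PPARGC1A by 0.89, while HIF1A did not pass at 0.13. MYCN changed by -0.43, MLXIP, a glucose-sensing partner of MLX, by -0.36, and the oxygen sensor EGLN1 by -0.38.

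Of 15 tested hypoxia targets outside glycolysis, 10 rose and 2 fell, while 3 missed the threshold (median 0.36), beside 29.7% of all genes higher and 28.9% lower (median 0.0014). VEGFA rose by 1.05, BNIP3L by 0.93 and P4HA2 by 0.82, whereas ADM fell from a mean of 12.92 to 10.80 (log2 fold change -2.12, SE 0.090). The other gene that fell was EGLN1, which, like EGLN3, is also counted among the regulators above. The list leaves out PDK1 and, by its definition, hypoxia-induced genes of glycolysis.

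**Figure D4:**
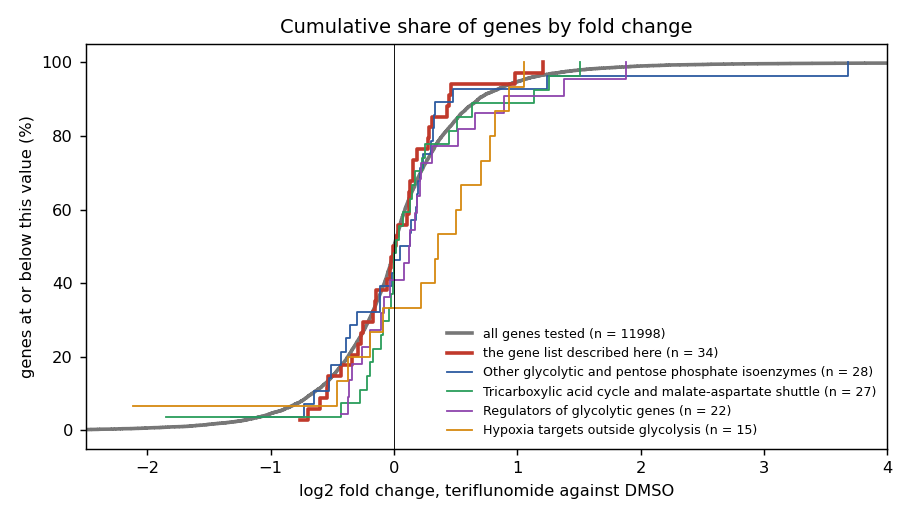
Cumulative share of genes, in percent, against log2 fold change, for all 11998 genes tested, the 34 tested members and the 4 related lists. The curve of the members follows that of all genes and ends at 1.21, the hypoxia targets have a median of 0.36, and some of the 11998 genes lie beyond the axis.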

How the data were processed

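For each array (Affymetrix HG-U133 Plus 2.0) the authors deposited a log2 intensity for every probe set. GCRMA is the tool named per the submitters' processing notes, without a version. By default it models background from probe sequence and normalizes by quantiles, which would remove any shift common to all genes. The lowest value on each array was 2.18, held by 33.8% to 34.2% of probe sets. The array medians were 2.63 to 2.66, so the filter below also kept probe sets near that lowest value. Pearson's r across probe sets was 0.998 to 0.999 within groups and 0.989 to 0.990 between them. Arrays give no read depth, and their number limits the precision.

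Of 54675 probe sets, 41097 had 1 symbol. Probe sets at or above the array's median on at least 3 arrays were kept, the one with the highest mean stood for a gene, and 11998 genes were fitted with limma 3.58.1 (R 4.3.3; lmFit and eBayes, no covariate), two-sided, with Benjamini-Hochberg adjustment and a threshold of 0.05. A separate fit of 22735 probe sets gave the values of single probe sets. Errors are SE of a log2 fold change or SD of arrays. Python 3.11.15 served for reading, exact permutation tests, motif counts and drawing. The fit was tested on simulated data. Alternatives were the filter, scaling, choice of probe set, a raised floor, variance model, array weights, the replicate block and leaving out each array.

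All 37 members are accounted for, and of each related list the 3 largest risers and 3 largest fallers past the threshold are named. Members and lists were chosen with earlier results of these data known. Any other gene or probe set was named after its value was seen. Promoter windows are RefSeq's, and no genome build is tied to the arrays.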

Additional observations from a re-analysis of the deposited data

How the results depend on the processing

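The members called higher numbered 10 to 13 and those called lower 9 to 12 under the 10 settings that keep all arrays, against 13 and 11. With the replicate block the counts were 10 and 10, and over all genes 3359 higher and 3282 lower, against 3560 and 3471. Deviations of arrays that share a replicate number correlated at 0.044, 0.099 and -0.09. Those of arrays with different numbers correlated at -0.158 to 0.141. These values show no effect shared by a replicate number, but cannot tell whether cultures or days were paired. Leaving out an array gave 8 to 11 higher and 9 to 11 lower members, and 8 higher without DMSO replicate 3. Of 541 comparisons of a member with an alternative setting, 485 kept direction and call, 43 lost the call, 6 gained it and 7 changed sign. The sign changes were PDHA1 with a plain suffix preferred (-0.39), PDK3 with the mean of its probe sets (0.21), with quantile normalization (0.0031) and when an array was left out (-0.0275 to 0.0211, among them 0.009 and 0.021), and, with the mean of their probe sets, ALDOA (-0.027) and GAPDH (0.0062). PDHA1 with the plain suffix (limma adjusted p = 0.0137) and PDK3 with the mean (limma adjusted p = 0.00902) also passed the threshold. Both were counted only as sign changes. The plain suffix and the mean bring in other probe sets of the gene, and the cause of the remaining sign changes was not tested. With values under log2 5 raised to 5 the counts were 13 and 11, and no member's representative probe set had a DMSO mean under log2 5.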

Other observations

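A probe set that names RPE together with its near-identical copy RPEL1 was left out of the gene tests. Its mean was 7.95 (SD 0.055, n = 3) in DMSO and 7.53 (SD 0.24, n = 3) with teriflunomide, a log2 fold change of -0.42 (limma adjusted p = 0.0414), opposite to the RPE probe sets that rose. Another 2 probe sets name SLC2A3 together with SLC2A14 and stayed between 2.18 and 2.80 on all 6 arrays.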
